A study of Homo sapiens with 6 samples.

Results

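The genes described here are the ligands, receptors, SMAD proteins, antagonists, co-receptors and feedback regulators of the BMP and TGF-beta signalling family. They are 50 of the 58051 genes in the count table and were found by their symbols; the ID genes and INHBE had been set aside from the family. The family was selected on fold changes and calls from the same comparison in these libraries, so the values below describe the comparison and are not independent support for it. No value served as a threshold for membership, which follows the genes' known roles.

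Transcripts were counted by sequencing of poly(A)-selected RNA from HEK293T, an immortal line from human embryonic kidney with the SV40 T antigen. RNA was taken 48 hours after the cells had been transiently transfected with an empty vector (pcDNA3.1-, 3 libraries) or with the same vector carrying ppk1, which encodes a bacterial kinase that makes polyphosphate (3 libraries). The vector drives its insert from a viral promoter, and both groups went through transfection. The libraries are lettered B, C and D, and the series' design text says that the control and ppk1 library of a letter are matched biological replicates. Library totals ran from 40851783 to 67122986 counts, and in each pair the ppk1 library was the deeper. The 8 markers used for the line, NEFM, VIM and KRT18 among them, were all detected, and summed to 799.9 to 926 CPM with empty vector and to 784.6 to 825.7 CPM with ppk1. CPM is a gene's count divided by the scaled library total, times 1e6. Of the line's markers, NEFL was lower with ppk1 (61.05 to 66.11 CPM, against 71.36 to 86.15 with empty vector). KRT18 (51.38 to 56.5 against 42.25 to 46) and INA (37.07 to 45.61 against 33.12 to 35.91) were higher with ppk1. The groups overlapped for the rest of the line's markers. The 7 markers of leukocytes, endothelium, liver, fibroblasts and mature kidney cells summed to 1.42 to 2.203 CPM with empty vector and 0.939 to 1.33 CPM with ppk1. These sums are near 0 but do not overlap, mainly through ALB and LUM; the leukocyte gene PTPRC and the tubule gene UMOD reached at most 4 counts and 1 count. Their part in the results was not tested. A lower level in such bulk RNA can reflect fewer cells with the transcript or less of it per cell, and these cannot be told apart.

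As background, ligands of this family bind a pair of receptor kinases, a type II receptor that phosphorylates a type I receptor. The type I receptor then phosphorylates SMAD proteins that enter the nucleus with SMAD4. BMP ligands act mainly through SMAD1, SMAD5 and SMAD9, and TGF-beta and activin ligands mainly through SMAD2 and SMAD3. Noggin, chordin, gremlin and follistatin trap ligands outside the cell, and SMAD6 and SMAD7 inhibit inside it. The genes for SMAD6, SMAD7, noggin and the ID proteins are known to be switched on by the pathway itself, as feedback. In kidney development BMP7 maintains the nephron progenitors.

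Promoter windows of 300 bases are shown for the SMAD6, SMAD9 and SKIL genes, because these are the members that fell with ppk1 and for which RefSeq (GRCh38.p14) gave a window. A window runs from 250 bases before to 50 bases after the annotated start. Capitals mark GGCGCC, the core of the BMP SMAD element, CAGAC, the short SMAD3 and SMAD4 box, and GTGGGCG, the core of the EGR1 motif, each searched on both strands. The SMAD6 window is chr15:66701986-66702285 on the + strand, the SMAD9 window chr13:36920189-36920488 on the - strand and the SKIL window chr3:170357465-170357764 on the + strand.
SMAD6: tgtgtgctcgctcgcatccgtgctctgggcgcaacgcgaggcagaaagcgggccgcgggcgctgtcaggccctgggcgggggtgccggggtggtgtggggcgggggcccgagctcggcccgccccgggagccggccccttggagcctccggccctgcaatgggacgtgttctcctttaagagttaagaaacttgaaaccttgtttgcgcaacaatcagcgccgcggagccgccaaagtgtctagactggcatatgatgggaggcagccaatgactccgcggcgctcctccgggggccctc
SMAD9: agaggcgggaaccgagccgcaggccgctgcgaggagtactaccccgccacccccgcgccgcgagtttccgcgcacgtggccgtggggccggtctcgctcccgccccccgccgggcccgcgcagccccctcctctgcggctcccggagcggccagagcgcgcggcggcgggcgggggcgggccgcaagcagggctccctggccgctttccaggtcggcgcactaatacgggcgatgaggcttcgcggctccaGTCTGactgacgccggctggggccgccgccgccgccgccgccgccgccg
SKIL: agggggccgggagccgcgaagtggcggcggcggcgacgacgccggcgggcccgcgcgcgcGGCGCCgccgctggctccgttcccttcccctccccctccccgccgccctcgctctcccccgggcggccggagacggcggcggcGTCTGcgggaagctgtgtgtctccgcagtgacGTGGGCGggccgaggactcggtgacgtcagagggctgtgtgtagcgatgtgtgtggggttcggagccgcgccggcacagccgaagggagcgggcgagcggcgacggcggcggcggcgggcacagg
The SMAD6 window held none of these strings, the SMAD9 window held 1 match to CAGAC, and the SKIL window held 1 match to each of the 3 strings. The windows are rich in G and C, at 68.0%, 79.7% and 79.0% in the order shown. Among all 35116 windows of the table, 19.2% held GGCGCC, 45.3% CAGAC and 9.52% GTGGGCG. Windows existed for 46 of the 50 members, 87 windows in all, and 26.4% of them held GGCGCC, 42.5% CAGAC and 11.5% GTGGGCG. A match is a string of letters and not evidence of binding.

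The empty vector cells expressed most of the pathway. Levels between genes are compared as CPM per kilobase of exon in the empty vector libraries, with exon lengths from GENCODE release 29 that count every annotated transcript. Of the ligands among the members, TGFB1 (10.2 CPM per kilobase) and BMP7 (9.17) were the most abundant, followed by BMP6 (5.10), GDF11 (3.67) and BMP4 (3.53). TGFB3, INHA, BMP2 and INHBB lay between 0.610 and 1.07, and TGFB2 and INHBA at 0.230 and 0.203. BMP5 had 4 to 14 counts in a library and was the only member that did not pass the filter on low counts, leaving 49 tested members. Except where a rule in the methods names them, members given with values here were picked after their values were seen.

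Both arms of the receptor system were present. The activin type I receptor ACVR1B (10.2 CPM per kilobase), the activin type II receptor ACVR2B (9.46) and the TGF-beta type I receptor TGFBR1 (8.60) led the receptors. The BMP receptors BMPR2 (4.37) and BMPR1A (3.95) followed, and BMPR1B was the lowest at 1.19. The order of ACVR1B and ACVR2B rests on annotated exon lengths of 5690 and 15744 bases. Without division by length ACVR2B stood higher, at 149 CPM against 58.2 CPM for ACVR1B and 52.0 CPM for BMPR2. Of the co-receptors, NEO1, which binds the RGM proteins, stood at 11.2 CPM per kilobase, while endoglin (ENG), a co-receptor best known from endothelium, stood at 0.0681. SMAD5 was the most abundant SMAD at 18.3 CPM per kilobase, above SMAD9 (5.39), SMAD3 (4.35) and SMAD1 (2.16). In CPM, SMAD3 (39.6) stood above SMAD9 (30.9). The SMAD2 value (1.16) rests on an annotated exon length of 36366 bases and is lowered by it. SMAD6 and SMAD7 stood at 2.64 and 1.78. Of the antagonists, FSTL1 (14.2) was the most abundant and NOG (3.83) the next, with GREM1 at 0.0461. In CPM, CHRD (9.03) stood above NOG (7.25). The GREM1 value rests on a long annotated exon length too, 14606 bases.

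**Figure D1:**
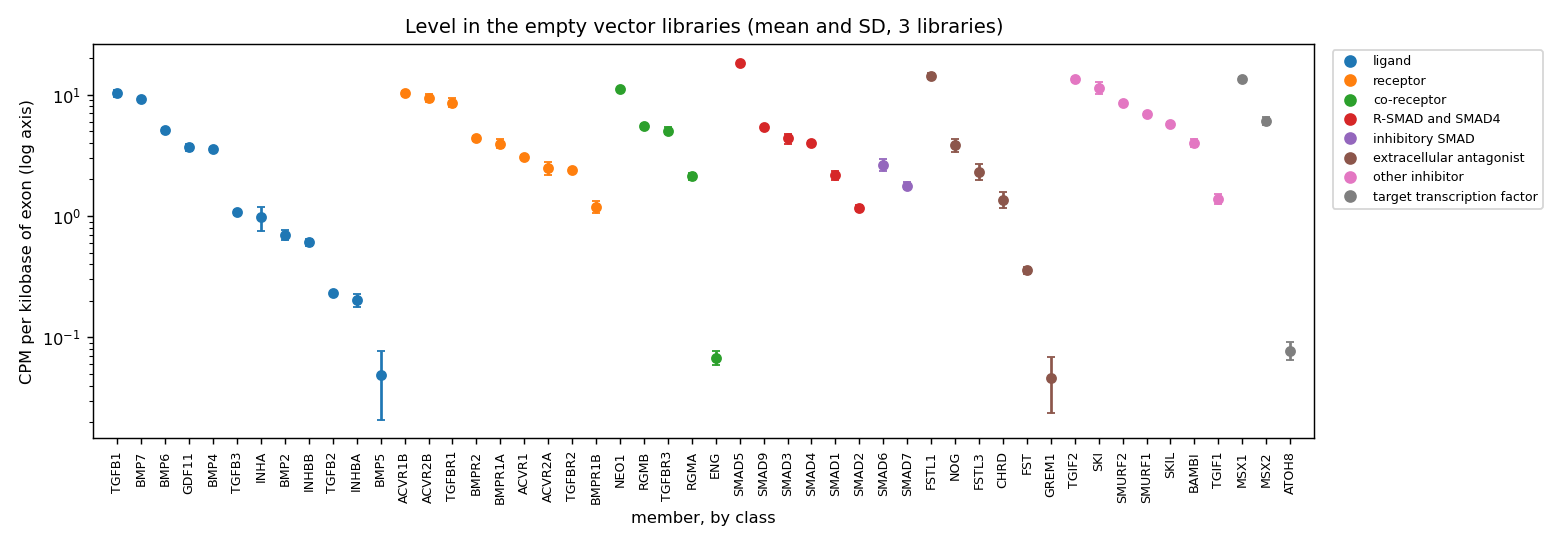
Level of each of the 50 members in the empty vector libraries, as CPM per kilobase of exon on a log axis, grouped and coloured by class; points are means and bars SDs of 3 libraries. SMAD5 is the highest at 18.3, and BMP5, ENG, GREM1 and ATOH8 all lie below 0.1.

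With ppk1, 7 of the 49 tested members had an adjusted p below 0.05 in edgeR's quasi-likelihood test with the replicate letter as a block, and these are the members named as called. NOG, SMAD6, SMAD9 and SKIL fell, and INHBA, TGFB1 and SKI rose. The members' share is 14.3%, beside 9.08% of all 19574 genes tested. In each direction, 4.04% of all tested genes were called higher and 5.04% lower. Since the family was chosen with this comparison known, nothing is read from the difference between these shares. The classes described below hold few genes, and nothing is read from their counts of calls either. The median log2 fold change of the tested members was -0.04, beside 0.01 for all tested genes. At an unadjusted p below 0.05 there were 14 members (28.6%), beside 23.8% of all tested genes. Without the replicate block 3 members were called, NOG, SMAD6 and SMAD9, beside 2.40% of all tested genes. DESeq2 with the block called the same 3, beside 754 of the 19574 tested genes. The libraries of the groups did not overlap in CPM for 18 members (36.7%), 5 higher and 13 lower with ppk1. Over all tested genes the share was 25.6%, with 2545 genes higher and 2475 lower.

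Noggin, the secreted BMP antagonist encoded by NOG (ENSG00000183691, chromosome 17), had the largest change of the family. It stood at 7.71, 7.81 and 6.22 CPM in the empty vector libraries B, C and D and at 4.33, 3.25 and 4.62 CPM in the ppk1 libraries. Every ppk1 library was below every control, and the drop was deepest in pair C and shallowest in pair D. The means were 7.25 ± 0.89 and 4.07 ± 0.72 CPM (SD, n = 3 libraries per group). The log2 fold change was -0.84 (SE 0.12, 95% interval -1.09 to -0.59; edgeR adjusted p = 2.73e-06, and 0.009 without the block), a ratio of 0.558. Of all tested genes, 2.07% had a larger absolute log2 fold change.

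SMAD6 (ENSG00000137834, chromosome 15), the inhibitory SMAD that acts mainly on the BMP arm, fell in each pair. Its levels were 22.4, 25.2 and 20.3 CPM in the empty vector libraries B, C and D and 15.3, 15.5 and 15.6 CPM in the ppk1 libraries. The ppk1 libraries were nearly level with each other, and the controls were spread more widely. The log2 fold change was -0.54 (SE 0.08; edgeR adjusted p = 8.62e-06, and 0.00675 without the block), a ratio of 0.686. SMAD7 (ENSG00000101665), which inhibits both arms of the pathway and is the other member of this class, stood at 9.24, 9.37 and 8.25 CPM with empty vector and 7.53, 7.66 and 7.44 CPM with ppk1. These groups did not overlap either, but its log2 fold change of -0.25 (SE 0.10) had an edgeR adjusted p of 0.118, and 0.189 without the block. The difference between the SMAD6 and SMAD7 changes was not tested.

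SMAD9 (ENSG00000120693, chromosome 13), a receptor-activated SMAD of the BMP arm also known as SMAD8, was the only called gene among the signal-carrying SMADs. It stood at 31.7, 30.2 and 30.7 CPM in the empty vector libraries B, C and D and at 23.7, 20.7 and 22.4 CPM in the ppk1 libraries. The groups lay well apart, and the pair differences of -0.42, -0.54 and -0.45 on the log2 scale were alike. The log2 fold change was -0.47 (SE 0.08; edgeR adjusted p = 2.91e-05, and 0.00704 without the block), a ratio of 0.721. The other receptor-activated SMADs and SMAD4 had log2 fold changes between -0.11 and 0.07, with adjusted p-values of at least 0.419. SMAD5, the most abundant of them, stood at 164, 165 and 168 CPM with empty vector and 163, 150 and 154 CPM with ppk1. Its log2 fold change was -0.09, with a 95% interval of -0.24 to 0.06. The intervals of SMAD1 (-0.20 to 0.17), SMAD2 (-0.10 to 0.20), SMAD3 (-0.08 to 0.22) and SMAD4 (-0.26 to 0.05) each included 0.

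NOG, SMAD6 and SMAD9 were called in each of the 9 alternative analyses, including each that left out a replicate pair. Across these the highest adjusted p was 0.009 for NOG (without the block), 0.0196 for SMAD6 and 0.0259 for SMAD9 (both without replicate C). No exon of these 3 genes overlaps an exon of another gene in GENCODE release 29, and at most 0.385% of their 50-base stretches occur in another gene's transcripts. They are also the members for which the lower level held in all 3 pairs by at least 0.38 on the log2 scale, the smallest being SMAD6 in pair D.

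**Figure D2:**
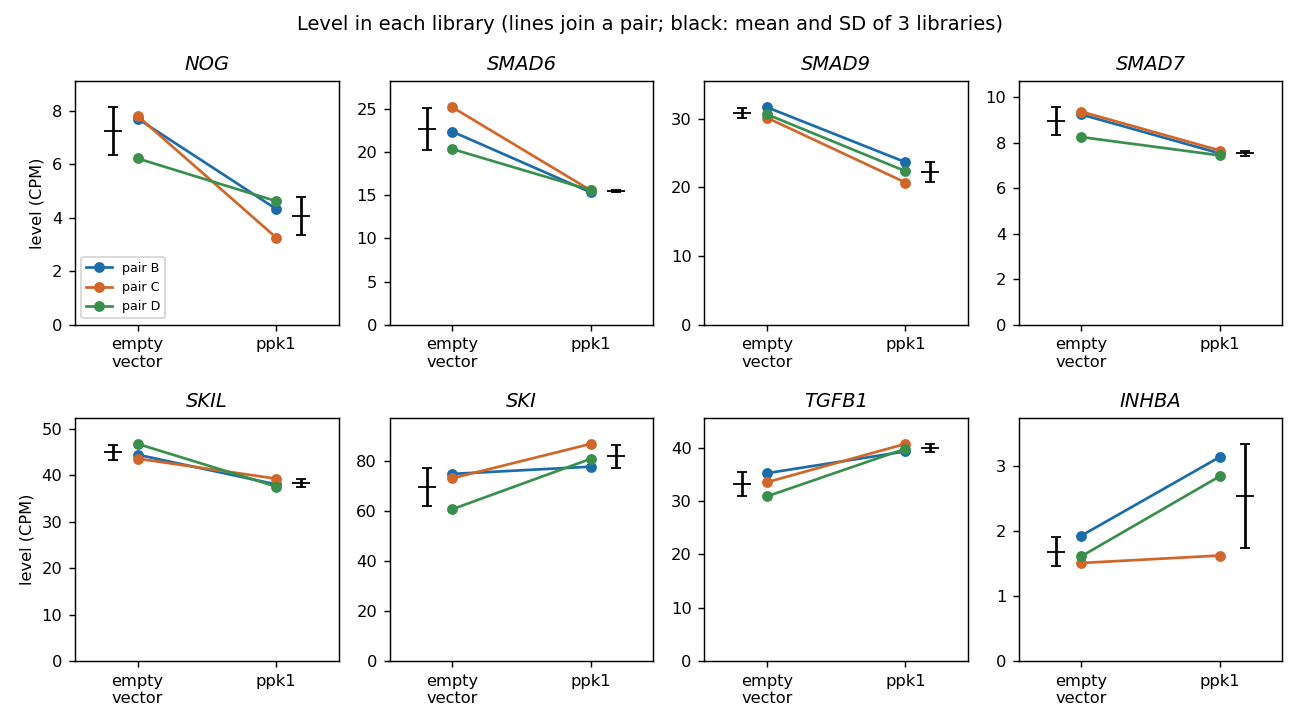
Level in CPM of the 7 called members and SMAD7 in each library, with lines joining the empty vector and ppk1 library of a pair; black marks give the mean and SD of 3 libraries per group. NOG, SMAD6 and SMAD9 fall in every pair, whereas INHBA rises in pairs B and D and stays almost level in pair C.

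The other called members moved by less or less evenly, and all 4 lost the call without the block, in DESeq2 and without replicate D. TGFB1 (ENSG00000105329, chromosome 19), the ligand transforming growth factor beta 1, stood at 35.2, 33.5 and 30.8 CPM in the empty vector libraries and 39.3, 40.7 and 39.8 CPM in the ppk1 libraries. Every ppk1 library was above every control, and the log2 fold change was 0.27 (SE 0.08; edgeR adjusted p = 0.0178, and 0.0825 without the block). On the opposite strand, exons of HNRNPUL1 cover 6.64% of its exon length, so its value is uncertain if the counting ignored strand. Without replicate C its adjusted p was 0.393, and without replicate D 0.108.

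INHBA (ENSG00000122641, chromosome 7), which encodes the activin A subunit, was read at low depth, 66 to 210 counts in a library. It stood at 1.93, 1.51 and 1.62 CPM with empty vector and 3.14, 1.63 and 2.85 CPM with ppk1, so the ppk1 library of pair C lay among the controls. Its log2 fold change was 0.57 (SE 0.16; edgeR adjusted p = 0.0186, and 0.181 without the block). It was 0.75 without replicate C, and leaving out replicate B gave an adjusted p of 0.136 and leaving out D one of 0.131. The partner subunits INHA and INHBB were not called, with log2 fold changes of -0.09 and 0.00.

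SKI and its paralog SKIL encode corepressors that bind SMAD complexes, and they moved in opposite directions. SKI (ENSG00000157933, chromosome 1) stood at 74.8, 73.0 and 60.7 CPM with empty vector and 77.7, 86.8 and 80.8 CPM with ppk1. Its log2 fold change was 0.24 (SE 0.08; edgeR adjusted p = 0.0414, and 0.184 without the block). The pair differences were 0.05, 0.25 and 0.41 on the log2 scale, so pair B hardly moved and the control of pair D was the low library. SKIL (ENSG00000136603, chromosome 3) stood at 44.5, 43.6 and 46.8 CPM with empty vector and 38.1, 39.3 and 37.6 CPM with ppk1. Its log2 fold change was -0.23 (SE 0.08; edgeR adjusted p = 0.0427, and 0.100 without the block). The groups did not overlap for either gene, but both calls lay close to the threshold: SKI lost it in 8 of the 9 alternatives and SKIL in 6 of 9, always with the same direction.

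**Figure D3:**
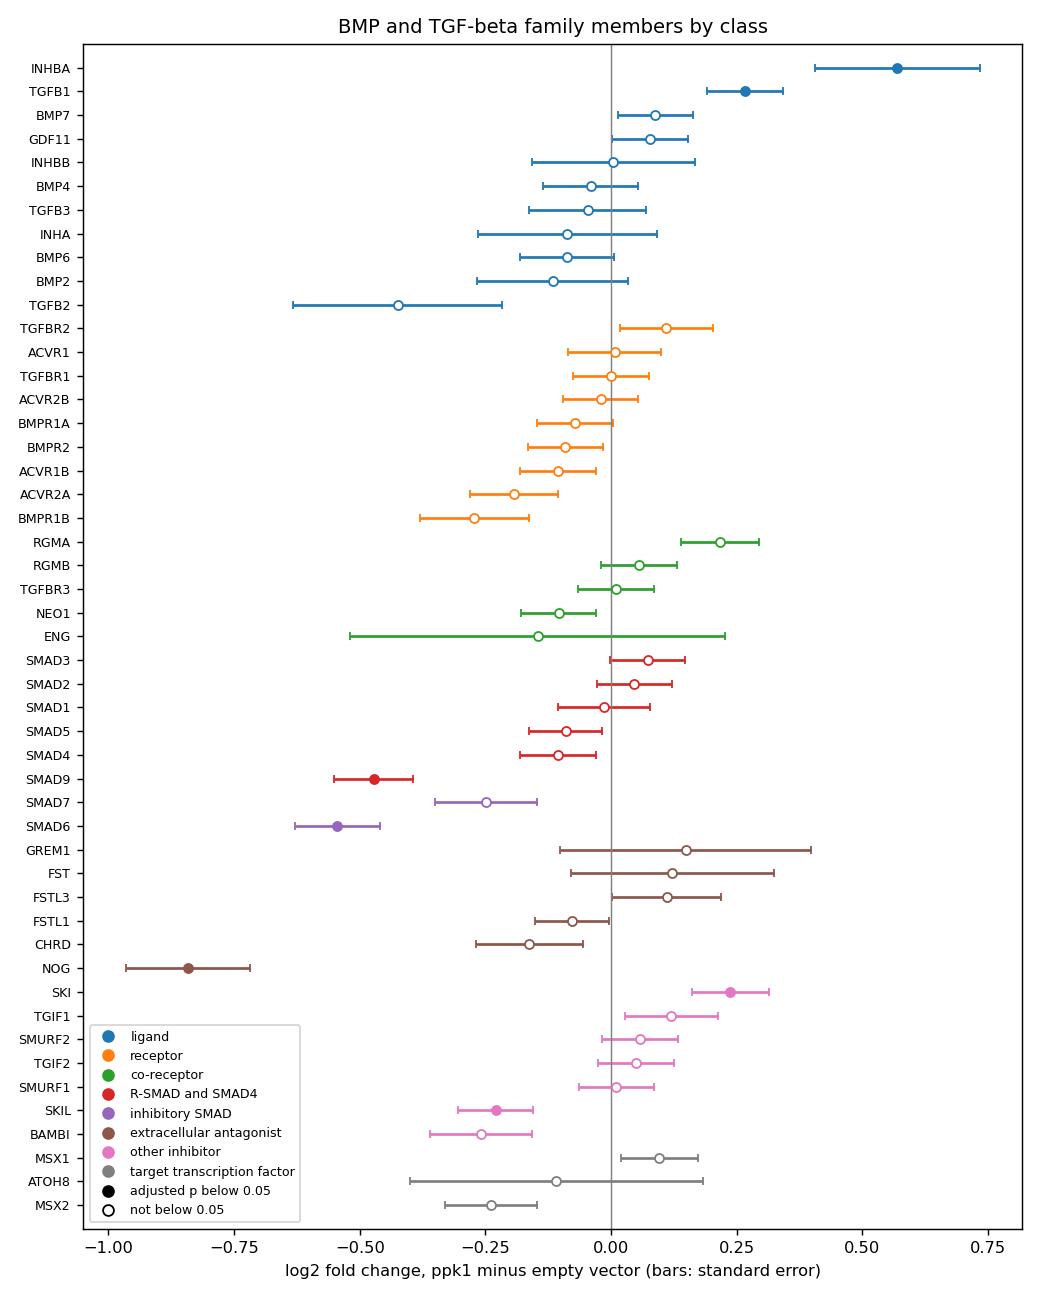
Log2 fold change of each of the 49 tested members, ppk1 minus empty vector, with standard errors, grouped and coloured by class; filled points have an edgeR adjusted p below 0.05. Most members lie within 0.3 of 0, and NOG, SMAD6 and SMAD9 stand at the low end.

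Among the ligands, 2 of 11 tested members were called (18.2%), both higher. Over all tested genes 9.08% were called and 4.04% were called higher. Without the block 0 of the 11 were called, beside 2.40% of all tested genes, and by DESeq2 0, beside 754 of the 19574. With 11 genes, nothing is read from these counts. The remaining 9 had log2 fold changes between -0.42 and 0.09. The low end was TGFB2, with 1.16, 1.20 and 1.20 CPM in the empty vector libraries and 0.82, 0.77 and 1.08 CPM in the ppk1 libraries (adjusted p = 0.201). TGFB2 rests on 37 to 61 counts per library and shares 25.4% of its 50-base stretches with another gene's transcripts. BMP7, the ligand with the highest CPM, stood at 49.8, 51.0 and 48.3 CPM with empty vector and 52.0, 55.0 and 51.4 CPM with ppk1. The groups did not overlap, yet the log2 fold change was 0.09, with a 95% interval of -0.06 to 0.24. BMP4 (-0.23 to 0.15), BMP6 (-0.28 to 0.10) and BMP2 (-0.42 to 0.18) had intervals on both sides of 0.

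Of the 9 receptor kinase genes, 0 were called by edgeR with the block, 0 without it and 0 by DESeq2. Over all 19574 tested genes 9.08% were called with the block, 2.40% without it and 754 genes by DESeq2. With 9 genes, 0 calls is not read as a result. At an unadjusted edgeR p below 0.05 there were 2 (22.2%), beside 23.8% of all tested genes. The log2 fold changes of the 9 genes ran from -0.27 to 0.11. BMPR1B, a BMP type I receptor, had the largest, with 6.50, 8.01 and 7.93 CPM in the empty vector libraries and 6.20, 5.82 and 6.44 CPM in the ppk1 libraries. Every ppk1 library was below every control, but the adjusted p was 0.109, and 0.0453 without replicate B. ACVR2A, an activin type II receptor, had a log2 fold change of -0.19 (adjusted p = 0.165). ACVR2B, the receptor with the highest CPM, stood at 156, 155 and 136 CPM with empty vector and 148, 146 and 146 CPM with ppk1. For ACVR2B the 95% interval of the log2 fold change was -0.17 to 0.13, for TGFBR1 -0.15 to 0.15 and for BMPR1A -0.22 to 0.08. BMPR1A shares 12.03% of its 50-base stretches with other genes' transcripts.

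Of the 5 co-receptor genes, 0 were called by edgeR with the block, 0 without it and 0 by DESeq2. Over all 19574 tested genes 9.08% were called with the block, 2.40% without it and 754 genes by DESeq2. With 5 genes, 0 calls is not read as a result. At an unadjusted edgeR p below 0.05 there was 1 gene (20%), beside 23.8% of all tested genes. That gene was RGMA, a membrane-anchored BMP co-receptor. It stood at 30.0, 28.0 and 26.2 CPM with empty vector and 32.9, 32.2 and 32.7 CPM with ppk1, without overlap. Its log2 fold change was 0.22 (SE 0.08; adjusted p = 0.0674, and 0.0460 without replicate B). NEO1 stood at 90.1, 90.4 and 91.9 CPM with empty vector and 88.6, 83.2 and 81.7 CPM with ppk1, which gave -0.10 as log2 fold change (adjusted p = 0.420). RGMB, of whose exon length 45.6% lies opposite other genes' exons, had a log2 fold change of 0.05.

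Of the 6 extracellular antagonists 1 was called, NOG (16.7%, beside 9.08% of all tested genes). With 6 genes, nothing is read from this count. The other 5 had log2 fold changes between -0.16 and 0.15. Chordin (CHRD) had pair differences of -0.16, -0.48 and 0.14 on the log2 scale, in both directions. FSTL1, the most abundant of the class, stood at 120, 120 and 132 CPM with empty vector and 125, 110 and 117 CPM with ppk1 (log2 fold change -0.08). FST and GREM1 were read at 17 to 83 counts per library. Their 95% intervals ran from -0.28 to 0.53 and from -0.35 to 0.65, so changes within those ranges are not excluded.

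Of the 7 other inhibitors, SKI was called higher and SKIL lower (28.6%, beside 9.08% of all tested genes), and BAMBI came next. BAMBI, a pseudoreceptor that lacks a kinase domain, stood at 8.71, 8.96 and 10.1 CPM with empty vector and 7.84, 7.32 and 7.99 CPM with ppk1. The groups did not overlap, and the log2 fold change was -0.26 (SE 0.10; adjusted p = 0.0994). The ubiquitin ligases SMURF1 and SMURF2, which mark receptors and SMADs for degradation, had log2 fold changes of 0.01 and 0.06. The corepressors TGIF1 and TGIF2 had 0.12 and 0.05.

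Of the 3 target transcription factors, 0 were called by edgeR with the block, 0 without it and 0 by DESeq2. Over all 19574 tested genes 9.08% were called with the block, 2.40% without it and 754 genes by DESeq2. With 3 genes, 0 calls is not read as a result. MSX2 alone had an unadjusted edgeR p below 0.05 (33.3% of the class, beside 23.8% of all tested genes). MSX2, a homeobox gene known to respond to BMP, stood at 13.1, 15.01 and 13.1 CPM with empty vector and 11.1, 13.0 and 10.8 CPM with ppk1. Each ppk1 library was below its own control by 0.20 to 0.28 on the log2 scale, with an adjusted p of 0.0884. Its paralog MSX1 stood at 28.1, 29.7 and 28.0 CPM with empty vector and 30.0, 31.1 and 30.6 CPM with ppk1, a log2 fold change of 0.10 (adjusted p = 0.478). ATOH8 had 16 to 27 counts in a library and a 95% interval of -0.69 to 0.48.

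Over the 49 tested members the median pair difference was -0.02 in B, -0.09 in C and -0.08 in D on the log2 scale, and 9 members (18.4%) were higher and 16 (32.7%) lower in all 3 pairs. Over all tested genes those shares were 22.6% and 21.1%. Pair C held the deepest drops of NOG, SMAD6, SMAD9, BMPR1B and CHRD, pair D those of SKIL (-0.32) and BAMBI (-0.34), and pair B that of SMAD7, which was -0.29 in both B and C. Without replicate C 4 members and 406 of all genes were called, without replicate D 4 and 1803, and without replicate B 7 and 2435. In the fit without replicate B, RGMA and BMPR1B passed the threshold in place of INHBA and SKIL, and CHRD passed it without replicate D.

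**Figure D4:**
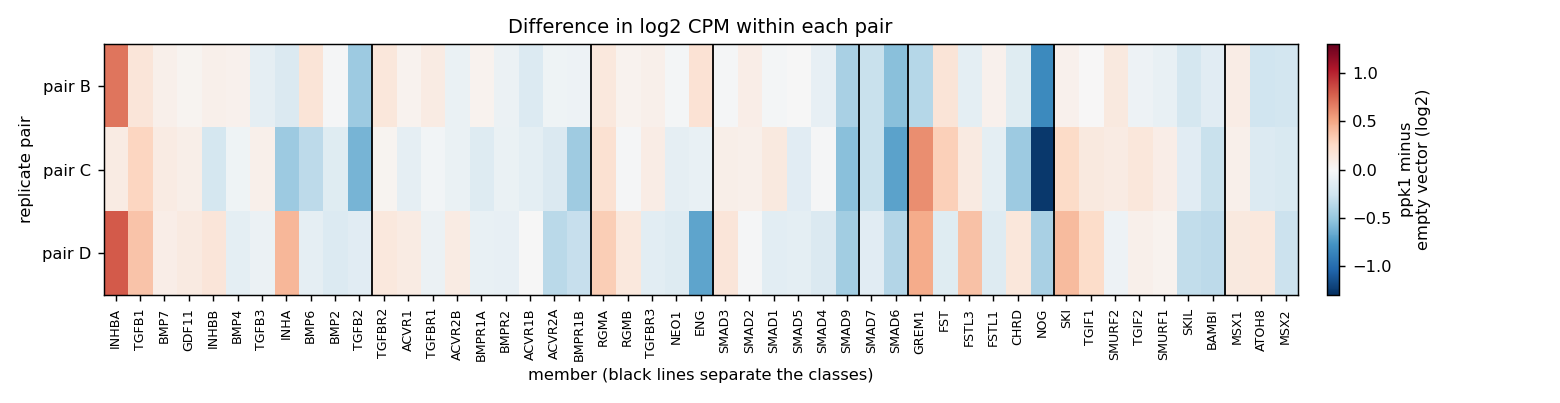
Difference in log2 CPM, ppk1 minus empty vector, within each replicate pair (rows) for the 49 tested members (columns, separated by class); red is higher and blue lower with ppk1. NOG, SMAD6 and SMAD9 are blue in all 3 rows, deepest in pair C, and INHBA is red in pairs B and D.

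Other genes of the pathway were taken from 6 lists drawn up by known role. In the order below, 30.8%, 33.3%, 27.3%, 15%, 8.7% and 0% of the tested list genes were called, beside 9.08% of all tested genes. Over all tested genes, 4.04% were called higher and 5.04% lower. The lists were chosen with earlier results known, so nothing is read from these differences. Of 13 tested BMP target genes, 4 were called lower and 0 higher, and the 4 were the ID genes, which encode inhibitors of basic helix-loop-helix factors. ID3 fell from 33.7 ± 2.82 to 6.13 ± 1.26 CPM (SD, n = 3), ID2 from 89.0 ± 13.4 to 30.9 ± 3.80, ID1 from 5.58 ± 0.76 to 1.95 ± 0.22 and ID4 from 64.0 ± 4.45 to 47.0 ± 3.74. Their log2 fold changes were -2.45, -1.52, -1.50 and -0.44, all but ID4's larger in size than that of any family member. The ID genes had led earlier results of this comparison, so their fall is not independent of the family's choice. The other 9 tested BMP targets had log2 fold changes of at most 0.32 in size.

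Of 15 tested TGF-beta and activin target genes, 1 was called higher and 4 lower, with a list median of -0.01. FN1 (fibronectin, -0.39), KLF10 (-0.36), BHLHE40 (-0.34) and the cell cycle inhibitor CDKN2B (-0.29) fell, and JUNB rose by 0.28, all as log2 fold changes. The groups of BHLHE40 overlapped, with a pair D difference of 0.00, and its log2 fold change was -0.53 without replicate D. Exons of HOOK2 lie opposite 14.2% of JUNB's exon length. Only FN1 was called without the block, beside 2.40% of all tested genes. Without replicate C 0 of the list were called, beside 406 of all genes. TGFBI, which encodes a TGF-beta-induced matrix protein, did not pass the filter on low counts and averaged below 0.1 CPM in both groups.

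Among 11 tested other ligands, 1 was called higher and 2 lower. INHBE, an inhibin beta subunit, fell from 11.3 ± 1.92 to 5.08 ± 0.89 CPM (SD, n = 3), a log2 fold change of -1.16. GDF15, a stress-induced distant member, fell from 5.57 ± 0.82 to 2.85 ± 0.56 CPM (log2 fold change -0.97). AMH, the anti-Müllerian hormone, rose from 33.4 ± 6.72 to 50.1 ± 6.74 CPM (log2 fold change 0.59). All 3 were called without the block, with edgeR adjusted p-values of 0.00152, 0.00717 and 0.0394 in the order given.

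Of 20 tested secreted modulators, BMPER (-0.61), which binds BMPs, and LTBP2 (-0.43) were called lower and THBS1 (1.49, as log2 fold changes) higher. Without the block 0 were called, beside 2.40% of all tested genes, and by DESeq2 0, beside 754 of the 19574. At an unadjusted edgeR p below 0.05 there were 7 (35%), beside 23.8% of all tested genes. Nothing is read from these counts. Without replicate B the log2 fold change of BMPER was -0.31 (edgeR adjusted p = 0.357). THBS1 rests on 1 to 6 counts with empty vector and 10 to 18 with ppk1. Of 23 tested intracellular regulators, ZNF423, a zinc finger cofactor of BMP SMADs, was called lower (-0.50) and FKBP1A, which binds type I receptors, higher (0.22). The call of FKBP1A (edgeR adjusted p = 0.0491) was lost in 8 of 9 alternatives, and that of ZNF423 without replicate C (edgeR adjusted p = 0.0586). FKBP1A shares 21.1% of its 50-base stretches with other genes' transcripts and is uncertain. Of 5 tested other receptors and co-receptors, 0 were called by edgeR with the block, 0 without it and 0 by DESeq2, with 0 at an unadjusted edgeR p below 0.05. The shares over all tested genes are those given above for the secreted modulators. With 5 genes, 0 calls is not read as a result.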

How the data were processed

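Libraries were made with a directional kit, per the labels' protocols. The authors deposited raw read counts per Ensembl gene, 1 column per library, and all 6 columns matched a sample by name. The submitters' processing notes name bcl2fastq 2.20, Trimmomatic, STAR, HTSeq, edgeR, DESeq, Cufflinks and Cuffdiff without roles; the genome build, annotation and strand setting are not given in the sources used here. No transcript of ppk1 itself was analysed here.

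Counts were tested with edgeR 4.0.16 (R 4.3.3; glmQLFit, glmQLFTest) over 19574 genes that passed filterByExpr (minimum count 10), with TMM scaling, replicate letter as a block and Benjamini-Hochberg adjustment over all tested genes (threshold 0.05). DESeq2 1.42.0 was an alternative, beside RLE and upper-quartile scaling, no filter, a mean of at least 50 counts, no block, and leaving out each pair. The script was tested on simulated data. Pair differences use log2 CPM with a prior count of 2. Standard errors are the absolute log2 fold change over the square root of F. The pairing comes from the series' design text; same-letter libraries deviated together from their group means with correlations across genes of 0.109 (B), 0.135 (C) and 0.0476 (D), against -0.12 to -0.00506 between letters. The 3 libraries per group limit the precision.

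The members and lists were chosen with earlier results of these data known. The rule for named genes takes every called member, the member of highest CPM and that of largest fold change in each class, up to 6 called genes of each list, and ID1 to ID4. A marker and a list gene are not reported here. Overlaps and shared 50-base stretches come from GENCODE release 29, which held 57447 of the 58051 identifiers.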

Additional observations from a re-analysis of the deposited data

How the results depend on the processing

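The number of called genes rests on the replicate block and on the test. Without the replicate block 470 genes and 3 members were called in place of 1777 and 7, with 0 members higher (in edgeR, 14 members had an unadjusted p below 0.05 with the block). DESeq2 called 754 genes and 3 members, also with 0 higher. Upper-quartile scaling called 1 member higher in place of 3. When each replicate pair was left out in turn, between 406 genes (without C) and 2435 (without B) were called, with 4 to 7 members, of which 0 (without D) to 3 (without B) were higher. Those fits hold fewer libraries, and the cause of the differing counts was not tested. The members called lower numbered 3 or 4 in every alternative, and the median log2 fold change of the tested members stayed between -0.06 and -0.02. No called member changed direction in any of the 9 alternatives. INHBA, TGFB1, SKI and SKIL lost the call without the block, in DESeq2 and without replicate D. Of the lists, TGF-beta and activin targets ran from 0 (without C) to 5 calls, secreted modulators from 0 to 3, intracellular regulators from 0 (without C) to 3 and BMP targets from 3 to 4. Depth limits BMP5, TGFB2, ENG, GREM1, FST, ATOH8 and THBS1, which had fewer than 100 counts in each library.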
